A study of Mus musculus and Canis lupus familiaris with 12 samples.

Results

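The genes described here are those of the tumour necrosis factor (TNF) superfamily: its ligands, its receptors, and the adaptors and kinases that the receptors recruit. They were taken by symbol from the count tables of DLM8, a mouse osteosarcoma cell line, and Gracie, a dog osteosarcoma cell line. Numbered TNFSF and TNFRSF genes, TRAF1 to TRAF7, FAS, CD40, LTBR, LTA, LTB, NGFR, RIPK1 to RIPK3, TRADD and FADD were included. This gave 50 of 78317 rows in DLM8 and 44 of 30424 rows in Gracie, 94 of 108741 rows in all. The symbol rule does not take in TNF itself, FASLG or CD40LG, which are given separately further on. Of the symbols, 43 were in both tables, 7 were in the DLM8 table alone, and TNFRSF6B was in the Gracie table alone.

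Both lines are labelled as wild type in genotype. Cells had 50 nM omacetaxine (OMX) for 6 h or were untreated, with 3 libraries in each group of each line and 12 in all. OMX is a plant alkaloid that blocks peptide elongation at the ribosome. The labels call the controls untreated, while the treatment protocol names DMSO for them. Each line is a single cell line in culture. The labels do not say whether replicates came from separate cultures, so the spread behind the p-values is that of these libraries and may be technical.

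TNF superfamily ligands are mostly trimers on the cell surface that bind trimeric receptors on the same or a neighbouring cell. Receptors with a death domain, such as TNFRSF1A and FAS, bind the adaptors TRADD and FADD and can start caspase activation, while receptors without one, such as CD40, LTBR and TNFRSF12A, bind TRAF proteins. TRAF proteins and the RIPK kinases lead on to the NF-kB and JNK pathways. In bone the family is best known for RANKL (TNFSF11), its receptor RANK (TNFRSF11A) and the decoy osteoprotegerin (TNFRSF11B), which set osteoclast formation.

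Totals per library were 9099313 to 11392715 counts in DLM8 and 2385102 to 3381831 counts in Gracie, so low rows were measured less closely in Gracie. Of the osteoblast and mesenchyme markers, DLM8 had Col1a1, Col1a2, Alpl, Runx2 and Sp7. Ibsp had no more than 2 counts in a DLM8 library and Bglap had 4 to 26. Of 9 tested, 6 were lower with OMX, where 15.9% of all genes tested in DLM8 were lower. Their summed level was 1096 to 1696 CPM with OMX and 2472 to 3509 CPM without. Gracie had VIM at 7249 counts or more in every library, but SPP1 and IBSP at no more than 2 counts and ALPL at no more than 5. There SP7 was called higher and SPARC lower, of 6 tested, and the sum was 3087 to 4100 CPM with OMX and 3699 to 5819 CPM without. The leukocyte marker PTPRC was at 0 in every Gracie library, and Ptprc had at most 2 counts in a DLM8 library. Among leukocyte markers 4 of 9 were at 0 in DLM8 and 3 of 8 in Gracie, and their summed level was 125 to 210.2 CPM in OMX and 119 to 127 CPM in untreated DLM8 cells, nearly all of it from Csf1r (1017 to 2118 counts). In Gracie that sum was 4.93 to 12.4 CPM with OMX and 5.03 to 6.62 CPM without. Of the endothelial markers, Cdh5 had 14, 36 and 49 counts with OMX and 0 in each untreated DLM8 library, while Tek and Kdr were at 0 throughout. The endothelial sum in Gracie was 4.24 to 12.4 CPM with OMX and 2.32 to 3.11 CPM without, with TEK at 0. Epithelial markers had at most 10 counts in a DLM8 library. In Gracie only 3 of the 5 had a row, each at 0. The part of these markers in the results was not tested. CPM are counts scaled to the library size, with TMM factors.

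In DLM8 the family changed mostly upward. Of the 50 rows, 10 were at 0 in every library, 15 stayed below the filter on low counts, and 25 were tested. Of these 25, 11 were called higher with OMX and 3 lower at an adjusted p under 0.05, where 35.3% of all 17109 genes tested were called, 19.4% higher and 15.9% lower. In bulk RNA, a change in the share of cells with a transcript and a change in RNA per cell cannot be told apart. The called rows were the ligand Ltb, the receptors Cd40, Fas, Tnfrsf12a, Tnfrsf19 and Tnfrsf1a, 6 of the 7 TRAF genes, and both tested RIPK kinases. The median log2 fold change of the 25 was 0.81, also with Traf1 at its lower bound, beside 0.02 over all genes tested. Traf1, Fas, Ltb and Tnfrsf9 passed the filter through the OMX libraries alone, so the filter favoured a rise in them. Without these 4, 21 rows were left, 8 called higher and 3 lower, with a median of 0.36.

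Gracie had fewer calls. Of its 44 rows, 5 were at 0 in every library, 19 stayed below the filter, and 20 were tested. Of the 20, 4 were called higher and 1 lower, where 20.6% of all 10423 genes tested were called, 12.5% higher and 8.06% lower. The called rows were the receptors TNFRSF12A, TNFRSF6B and LTBR and the adaptors TRAF2 and TRAF3. The median log2 fold change was 0.31 over the 20 rows and -0.01 over all genes. TNFRSF6B and CD40 passed the filter through OMX alone, and the other 18 rows had 3 calls higher, 1 lower and a median of 0.18. The share called among the members of Gracie was thus close to that of all genes.

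The split of calls over all genes moved with the scaling. With library size alone in place of TMM, DLM8 had 3977 genes higher and 1991 lower, against 3311 and 2726 with TMM, and the median of all genes shifted by 0.14. Gracie then had 1084 higher and 1204 lower, against 1308 and 840, with a shift of -0.13. Members called with library size alone numbered 11 higher and 3 lower in DLM8 and 3 higher and 1 lower in Gracie. All fold changes here are relative to the TMM scaling.

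The regulatory sequence just before the start site is shown for 4 members of DLM8 that were called higher: Ltb, Fas and Traf1, which were at or near 0 counts without OMX, and Traf3, whose window holds an NF-kB motif. Each is the 250 bases before the annotated start in RefSeq on GRCm38.p6, read 5′ to 3′ on the gene's strand, at chr17:35194257-35194506 (plus strand) for Ltb, chr19:34290409-34290658 (plus) for Fas, chr2:34961773-34962022 (minus) for Traf1 and chr12:111166120-111166369 (plus) for Traf3. Capitals mark matches to the kappaB consensus of NF-kB or to the AP-1 site TGANTCA.
Ltb: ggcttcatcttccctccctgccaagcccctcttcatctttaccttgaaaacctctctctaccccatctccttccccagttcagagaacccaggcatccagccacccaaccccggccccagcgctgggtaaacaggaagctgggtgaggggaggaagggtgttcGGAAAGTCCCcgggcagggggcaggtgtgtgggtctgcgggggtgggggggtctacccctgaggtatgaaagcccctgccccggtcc
Fas: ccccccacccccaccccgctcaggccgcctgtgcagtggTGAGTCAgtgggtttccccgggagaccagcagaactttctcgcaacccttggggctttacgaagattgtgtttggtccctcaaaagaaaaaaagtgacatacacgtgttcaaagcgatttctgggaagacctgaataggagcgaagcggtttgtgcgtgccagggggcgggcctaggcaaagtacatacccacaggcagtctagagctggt
Traf1: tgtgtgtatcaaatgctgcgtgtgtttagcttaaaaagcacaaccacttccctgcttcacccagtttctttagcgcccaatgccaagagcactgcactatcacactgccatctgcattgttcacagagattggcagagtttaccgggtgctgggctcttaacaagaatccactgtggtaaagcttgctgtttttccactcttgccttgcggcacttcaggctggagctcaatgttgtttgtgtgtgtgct
Traf3: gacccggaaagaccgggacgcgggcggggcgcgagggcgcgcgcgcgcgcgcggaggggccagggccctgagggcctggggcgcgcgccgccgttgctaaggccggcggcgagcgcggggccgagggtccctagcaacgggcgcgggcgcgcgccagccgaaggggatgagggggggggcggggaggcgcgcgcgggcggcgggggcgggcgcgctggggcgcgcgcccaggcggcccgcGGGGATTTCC
The kappaB match in Ltb begins 87 bases before the start and that of Traf3 begins 10 bases before it. Fas has an AP-1 match that begins 211 bases before the start, and Traf1 has no match to either. RefSeq windows were found for 39 of the 50 mouse members, 44 windows in all, and Ripk2 and Cd40 are without an entry.

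Searched on both strands, the kappaB consensus was in 2 of 10 windows of members called higher (2 of 9 genes), in 0 of 4 windows of those called lower and in 1 of 9 windows of those not called. The last was Tnfrsf9, with overlapping matches at 43 and 42 bases before the start. Over all 32851 windows 7.25% hold the kappaB consensus and 6.75% the AP-1 site. The AP-1 site was in 1 of 10 windows of members called higher, 0 of 4 of those called lower and 1 of 9 of those not called. These tallies leave out members at 0 or below the filter. Among those, Tnfrsf8 and Tnfrsf25 had kappaB matches, and Tnfrsf8, Tnfsf13b, Tnfsf13 and Tnfsf14 had AP-1 sites. These matches describe the letters of the windows and are not evidence of binding.

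Few ligands were detected. Of 13 ligand rows in DLM8, 5 were at 0 in every library (Lta, Tnfsf11, Tnfsf13b, Tnfsf4 and Tnfsf8), 7 had 0 to 18 counts per library and were not tested, and 1, Ltb, was tested. Ltb (ENSMUSG00000024399) encodes lymphotoxin beta, the membrane anchor of the lymphotoxin heterotrimer that binds LTBR. Its upstream window, shown above, holds a kappaB match. The row had 11, 43 and 64 counts in the 3 OMX libraries of DLM8, against 2, 0 and 0 in the untreated libraries. Every OMX library lay above every untreated one, and the OMX libraries spread widely among themselves. The count ratio, scaled to library size, was 55.4 with a 95% interval of 15 to 463 that covers counting error only, and the adjusted p was 0.00126. With 2 untreated counts in all, the size of the rise rests on a near absence of reads without OMX. In Gracie LTB had 9, 24 and 27 counts with OMX and 8, 4 and 2 without, no overlap either, but stayed below the filter.

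Gracie had 4 tested ligands, TNFSF10, LTA, TNFSF18 and TNFSF9, of which edgeR and DESeq2 both called 0, with 1 at an unadjusted p under 0.05. That one was TNFSF10, or TRAIL, which binds death receptors on other cells. TNFSF10 had 72.3, 62.9 and 68.7 CPM in OMX libraries of Gracie and 42.2, 50.2 and 43.4 CPM in untreated ones. The groups did not overlap, with a log2 fold change of 0.59 ± 0.22 (SE, n = 3 libraries each) and an adjusted p of 0.0786. In DLM8 Tnfsf10 had 2, 2 and 4 counts with OMX and 2, 0 and 0 without. LTA, the soluble lymphotoxin, had 19.3, 16 and 24.1 CPM with OMX in Gracie against 6.20, 14.4 and 13.9 CPM without, again with no overlap and an adjusted p of 0.197. The Lta row of DLM8 was at 0.

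TNFSF12, or TWEAK, is the ligand of TNFRSF12A. It had 3, 4 and 2 counts in OMX and 24, 13 and 8 counts in untreated Gracie libraries, below the filter and without a test. In DLM8 Tnfsf12 had 8, 9 and 4 counts with OMX and 17, 4 and 18 without, so the groups overlapped there. The row of Tnfsf13os, an antisense transcript found by the symbol rule, was tested in DLM8 and not called (log2 fold change 0.36, adjusted p 0.375). The RANKL gene Tnfsf11 was at 0 in all libraries of both lines. Its receptor gene was at 0 in DLM8 and had at most 4 counts in a Gracie library, and osteoprotegerin was at 0 in DLM8 and had 12, 16 and 6 counts with OMX against 4, 8 and 2 without in Gracie.

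Among the receptors, Cd40 and Fas had the largest fold changes of the called rows in DLM8. Of 24 receptor rows there 12 were tested, 3 were called higher and 2 lower, a share of 41.7% that is near the 35.3% of all genes. Cd40 (ENSMUSG00000017652), best known as the receptor through which T cells activate B cells and dendritic cells, had 28.8, 26.2 and 21.2 CPM in the OMX libraries, against 2.78, 3.07 and 8.83 CPM in the untreated ones. All OMX libraries lay above all untreated ones, and untreated library 3 was the highest of its group. The log2 fold change was 2.39 ± 0.38 (SE) with an adjusted p of 0.000461, and it was 3.1 without untreated library 3. In Gracie CD40 had 9.85, 5.45 and 14.3 CPM with OMX and 3.1, 5.45 and 0 CPM without. Those groups met at 5.45 CPM, and the log2 fold change of 1.78 ± 0.84 was not called (adjusted p 0.151).

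Fas (ENSMUSG00000024778) encodes the death receptor that recruits FADD and caspase-8. In DLM8 its row had 8.49, 6.61 and 7.48 CPM with OMX and 0, 0.986 and 0.465 CPM without, groups far apart. The log2 fold change was 3.98 ± 0.66 (adjusted p 0.000649), a value resting on 0, 9 and 4 untreated counts. It was 3.33 without untreated library 1 and 5.06 without untreated library 2. The FAS row of Gracie had 15.6, 6.66 and 7.82 CPM with OMX and 4.65, 8.57 and 13.2 CPM without. These groups overlapped, and the log2 fold change was 0.18 ± 0.55 (adjusted p 0.855).

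TNFRSF12A, or Fn14, the TWEAK receptor and a gene known to respond early to growth factors and injury, was called higher in both lines. Its row in Gracie (ENSCAFG00000023134) had 746, 645 and 618 CPM with OMX against 222, 256 and 295 CPM without. Each OMX library held over 2 times the CPM of each untreated one, and the log2 fold change was 1.38 ± 0.19 (adjusted p 0.000241). In DLM8 Tnfrsf12a (ENSMUSG00000023905) had 39.7, 21.5 and 12.9 CPM with OMX and 15.2, 10.6 and 8.60 CPM without. Here OMX library 3 lay below untreated library 1, and the log2 fold change was 1.10 ± 0.36 (adjusted p 0.0319). Without OMX library 1 it was 0.56 (adjusted p 0.150), and the call was also lost without OMX library 2 or untreated library 2 or 3 (adjusted p 0.0603, 0.108 and 0.119).

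TNFRSF6B, known in humans as the decoy receptor DcR3, is soluble and binds FASLG and TNFSF14 among other ligands. It had 24.6, 13.3 and 13.7 CPM in OMX and 0.775, 3.11 and 3.1 CPM in untreated Gracie libraries (ENSCAFG00000029380). The lowest OMX library was over 4 times the highest untreated one. The log2 fold change was 2.86 ± 0.59 with an adjusted p of 0.004, from 18 untreated counts in all. This gene was not analysed in DLM8.

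Receptors also fell. Tnfrsf1a (ENSMUSG00000030341), the main receptor for TNF, had 8.49, 5.48 and 3.32 CPM with OMX and 12.4, 10.5 and 14.4 CPM without in DLM8. The groups did not overlap, with a log2 fold change of -1.11 ± 0.33 (adjusted p 0.0207). The call was lost without OMX library 2 or 3 or untreated library 3, with adjusted p between 0.0589 and 0.0719. In Gracie TNFRSF1A had 17.2, 24.2 and 18.2 CPM with OMX and 39.9, 28.8 and 24.0 CPM without, which overlapped narrowly (log2 fold change -0.63, adjusted p 0.180).

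Tnfrsf19, or TROY, an orphan receptor linked to Wnt signalling and mesenchymal fate, had 3.75, 5.48 and 4.36 CPM with OMX and 6.13, 14.6 and 15.3 CPM without in DLM8. Untreated library 1 was the lowest of its group and still above all OMX libraries. The row (ENSMUSG00000060548) had a log2 fold change of -1.40 ± 0.36 (adjusted p 0.00992). In Gracie TNFRSF19 had 8, 1 and 2 counts with OMX and 2, 0 and 0 without, too few to test. LTBR, the lymphotoxin beta receptor, had 20.5, 36.0 and 28.3 CPM with OMX and 45.3, 47.9 and 61.5 CPM without in Gracie (ENSCAFG00000015184). All OMX libraries lay below all untreated ones, and the row fell by 0.86 (SE 0.28, adjusted p 0.0418). Leaving out any library but untreated 1 moved that adjusted p to between 0.0547 and 0.130. In DLM8 Ltbr had 21.1, 12.3 and 10.4 CPM with OMX and 25.1, 17.3 and 17.9 CPM without, overlapping groups with a log2 fold change of -0.46 (adjusted p 0.221). Without OMX library 1 that value was -0.85 and passed (adjusted p 0.0139).

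The other 7 tested receptors of DLM8 were not called. Among them was Tnfrsf9 (4-1BB, a costimulatory receptor), with 16, 16 and 12 counts in OMX libraries against 8, 0 and 0 in untreated ones (log2 fold change 2.38, adjusted p 0.0806), which passed without untreated library 1 (adjusted p 0.0104). Tnfrsf1b, the second TNF receptor, had 50, 22 and 8 counts with OMX and 24, 2 and 4 without, and also passed without untreated library 1 (adjusted p 0.0418). Tnfrsf22 and Tnfrsf23 encode closely related decoy receptors whose reads the counting could have split between them, so both are uncertain.

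Of the 7 TRAF genes, which carry the signal from the receptors, 6 changed in DLM8. All 7 were tested, of which 5 were called higher (Traf1 to Traf5), Traf7 was called lower and Traf6 was not called. Over all genes tested in DLM8, 19.4% were called higher and 15.9% lower. Traf2 (ENSMUSG00000026942), the adaptor that carries the ubiquitin ligases BIRC2 and BIRC3 to most receptors of the family, had 14.8, 21.5 and 19.3 CPM with OMX and 2.41, 3.51 and 2.32 CPM without. The groups were far apart, and the log2 fold change was 2.75 ± 0.29 (adjusted p 1.97e-05). In Gracie TRAF2 (ENSCAFG00000019541) had 55.0, 45.1 and 37.1 CPM with OMX and 13.2, 8.57 and 18.6 CPM without. There too every OMX library was above every untreated one, and the row rose by 1.76 ± 0.33 (adjusted p 0.00225).

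Traf1 (ENSMUSG00000026875) lacks the RING domain of the other TRAF proteins, binds TRAF2 and is a well known NF-kB target, although the window shown above has no kappaB match. It had 40, 64 and 38 counts with OMX and 0 in each untreated DLM8 library. Set against a floor of 3 counts over the untreated group, it was at least 44.5-fold higher with OMX (adjusted p 0.00011). With counts halved, the bound was 22.2-fold. In Gracie TRAF1 had 2, 8 and 2 counts with OMX and 0 in each untreated library, below the filter and at least 3.51-fold higher by the same floor.

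Traf4 (ENSMUSG00000017386), known for roles in epithelial and neural development and often raised in carcinomas, had 43.4, 41.5 and 37.8 CPM with OMX in DLM8, against 12.1, 9.64 and 7.90 CPM without. Both groups were tight and separate, and the log2 fold change was 2.04 ± 0.21 (adjusted p 1.52e-05). In Gracie TRAF4 had 8.21, 5.75 and 2.93 CPM with OMX and 1.16, 4.67 and 2.71 CPM without, overlapping, at a log2 fold change of 0.96 ± 0.73 (adjusted p 0.382).

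TRAF3 restrains non-canonical NF-kB signalling by holding the kinase MAP3K14 (NIK) for degradation. The Gracie row (ENSCAFG00000018075) had 53.8, 45.1 and 46.3 CPM with OMX and 27.9, 25.7 and 26.3 CPM without, with no overlap and a log2 fold change of 0.86 ± 0.25 (adjusted p 0.0249). In DLM8 Traf3 (ENSMUSG00000021277) had 31.2, 21.5 and 16.4 CPM with OMX and 17.6, 8.99 and 11.4 CPM without. OMX library 3 lay below untreated library 1 in DLM8, and the log2 fold change was also 0.86, with an SE of 0.29 and an adjusted p of 0.0392. Both calls were near the threshold. The DLM8 call was lost with upper-quartile scaling (adjusted p 0.0531) and without OMX library 1 or 2 or untreated library 2 or 3 (0.0827 to 0.164). The Gracie call was lost with library size alone (0.0585) and without any library but untreated 1 (0.0546 to 0.0909).

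Traf5, a close relative of TRAF2 that also acts in CD40 and LTBR signalling, had 10.9, 6.42 and 3.11 CPM with OMX and 2.60, 1.75 and 1.63 CPM without in DLM8. The groups did not overlap (ENSMUSG00000026637, log2 fold change 1.76 ± 0.48, adjusted p 0.0128), but the call was lost without OMX library 1 (1.23, adjusted p 0.0637) and without untreated library 2 (adjusted p 0.0505). TRAF5 had 6, 2 and 2 counts with OMX and 18, 0 and 0 without in Gracie, too few to test. Traf7, a ubiquitin ligase with WD repeats that binds the kinase MAP3K3, had 11.8, 4.63 and 4.67 CPM with OMX and 21.6, 15.3 and 15.8 CPM without in DLM8. The row (ENSMUSG00000052752) fell by 1.33 (SE 0.35, adjusted p 0.0115), by 1.94 without OMX library 1, and missed the threshold without OMX library 2 (adjusted p 0.0530). In Gracie TRAF7 had 87.9, 113 and 129 CPM with OMX and 70.5, 118 and 136 CPM without, fully overlapping (log2 fold change 0.03, adjusted p 0.958).

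Of the kinases, Ripk2 had the smallest p of all members in DLM8. RIPK2 is the kinase that bacterial sensors of the NOD family use to reach NF-kB. Its row (ENSMUSG00000041135) had 33.6, 47.7 and 42.2 CPM with OMX and 6.13, 7.45 and 8.60 CPM without in DLM8. The groups were far apart, and the row rose by 2.48 ± 0.22 on the log2 scale (adjusted p 5.83e-06). In Gracie RIPK2 had 14.8, 10.3 and 7.82 CPM with OMX and 8.52, 10.9 and 4.64 CPM without, overlapping groups with a log2 fold change of 0.44 ± 0.51 (adjusted p 0.578).

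RIPK1 is the kinase of the TNF receptor complex that can turn it to cell survival or to death. In DLM8 Ripk1 (ENSMUSG00000021408) had 12.2, 14.7 and 14.3 CPM with OMX and 7.98, 6.03 and 9.53 CPM without. There was no overlap, and the log2 fold change was 0.81 ± 0.25 (adjusted p 0.0253), a call lost on leaving out OMX library 2 or 3 or untreated library 1 or 2 (adjusted p 0.0584 to 0.111). In Gracie RIPK1 had 52.1, 50.8 and 54.4 CPM with OMX and 58.5, 65.0 and 58.8 CPM without. All OMX libraries lay below all untreated ones, with a small log2 fold change of -0.21 ± 0.22 (adjusted p 0.527). RIPK3, the kinase of necroptosis, had 9, 2 and 4 counts with OMX and 1, 8 and 2 without in DLM8, and in Gracie it was tested and not called (adjusted p 0.773). In Gracie 0 of the 3 kinases were called by edgeR or DESeq2, and 0 had an unadjusted p under 0.05.

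The death-domain adaptors were not called in either line by edgeR or DESeq2 (0 of 2 in DLM8 and 0 of 1 in Gracie, and 0 at an unadjusted p under 0.05). Fadd had 6.32, 6.51 and 7.06 CPM with OMX and 3.34, 7.23 and 5.93 CPM without in DLM8 (log2 fold change 0.28, adjusted p 0.555). FADD was not analysed in Gracie. Tradd had 5.73, 4.15 and 7.27 CPM with OMX and 2.78, 4.49 and 2.79 CPM without in DLM8 (log2 fold change 0.77, adjusted p 0.135). In Gracie TRADD had 17.7, 16.3 and 22.2 CPM with OMX and 24.8, 49.8 and 19.0 CPM without (log2 fold change -0.73, adjusted p 0.185). Both sets of groups overlapped.

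**Figure D1:**
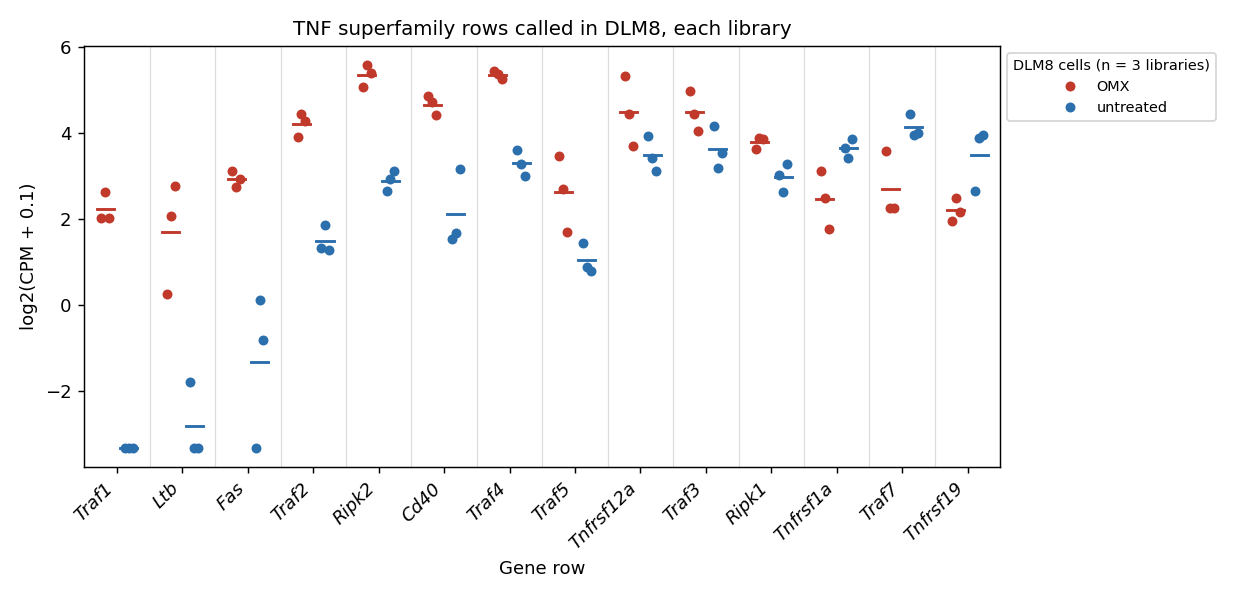
Level of the 14 TNF superfamily rows called in DLM8, as log2(CPM + 0.1), in each of 3 OMX (red) and 3 untreated (blue) libraries. Points are libraries and bars are means of the log values. Traf1, Ltb and Fas sit near the floor without OMX, and in the rows of Tnfrsf12a and Traf3 the groups overlap.

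**Figure D2:**
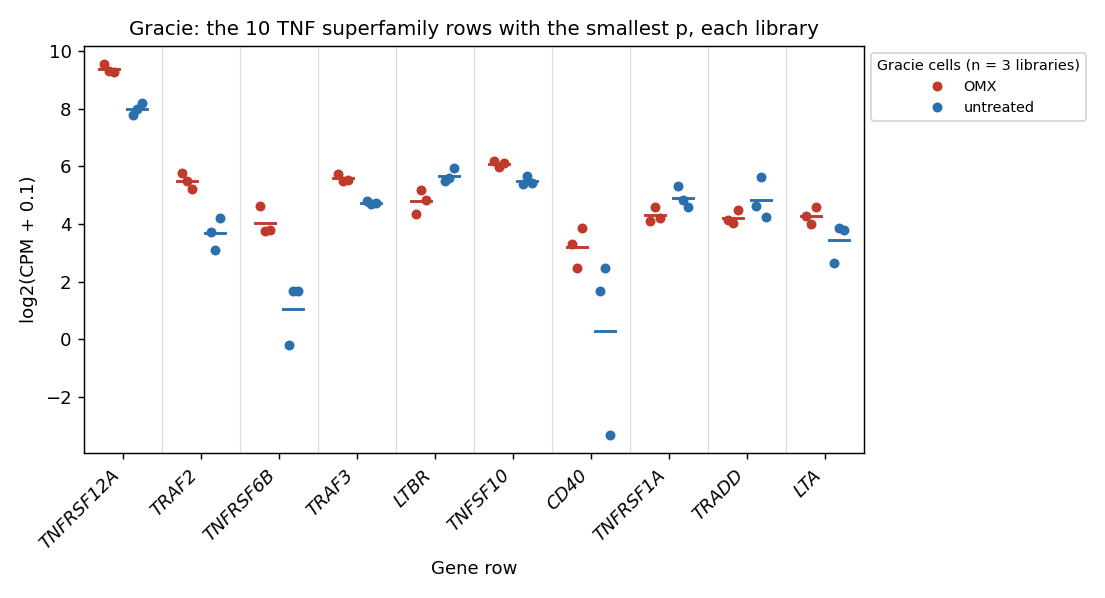
Level of the 10 TNF superfamily rows with the smallest p in Gracie, as log2(CPM + 0.1), in each of 3 OMX (red) and 3 untreated (blue) libraries. Points are libraries and bars are means of the log values. TNFRSF12A, TRAF2, TNFRSF6B and TRAF3 were called higher and LTBR lower, and the other 5 rows were not called.

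The plots of levels by library show where the spread lies. In DLM8, OMX library 1 was the highest of its group for several rows called in either direction, Tnfrsf12a, Traf3, Traf5, Traf7 and Tnfrsf1a among them. It also lay farthest from the rest of its group over all genes, with a mean chi-square per gene of 24.8 and 30.4 against OMX libraries 2 and 3, while these 2 gave 6.58 against each other. Replicate 1 stood farther from its group in the other 3 groups too, with 13.8 and 18.1 against 5.51 in untreated DLM8, 11.5 and 19.6 against 8.33 in OMX Gracie, and 16.6 and 27.5 against 8.47 in untreated Gracie. The part of these libraries in the results was not tested beyond leaving each out.

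Levels of different genes can be set side by side per length of exon, which the mouse annotation gives. On this scale, in CPM per kilobase, the highest rows of DLM8 with OMX were Ripk2 at 14.6 (2.63 untreated), Tnfrsf12a at 12.8 (5.94 untreated), Traf4 at 12.4 (3.00 untreated) and Tnfrsf18 at 11 (9.03 untreated). Cd40 was at 7.45 CPM per kilobase with OMX and 1.44 without. The lowest of the tested rows with OMX was Traf6, at 0.371 with and 0.346 without. Tnfrsf18 (GITR, a costimulatory receptor) faces an antisense gene with 6.94 times its counts, so its level may hold reads of the other strand, which was not tested. The strand that the rows were counted on is not given, which limits all of these levels.

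The difference between the lines was tested itself for the 13 members tested in both, as the interaction of line and treatment over 7566 shared genes, of which 12.1% were called. Of the 13, 3 were called, all with a larger value in DLM8, and 6 had an unadjusted p under 0.05. The value of RIPK2 in DLM8 minus that in Gracie was 2.04 ± 0.47 on the log2 scale (SE, adjusted p 0.00722). For FAS the difference was 3.78 ± 0.89 (adjusted p 0.00785). However, Fas passed the DLM8 filter through the OMX libraries alone, so the filter favoured a rise there. Without FAS and CD40, which passed in 1 line through OMX alone, 2 of 11 members were called. RIPK1 differed by 1.02 ± 0.32 (adjusted p 0.0402), and this call was lost on leaving out any 1 of 8 of the 12 libraries (adjusted p 0.0618 to 0.127). The RIPK1 row of DLM8 faces a gene with 8.13 times its counts, as given further on.

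**Figure D3:**
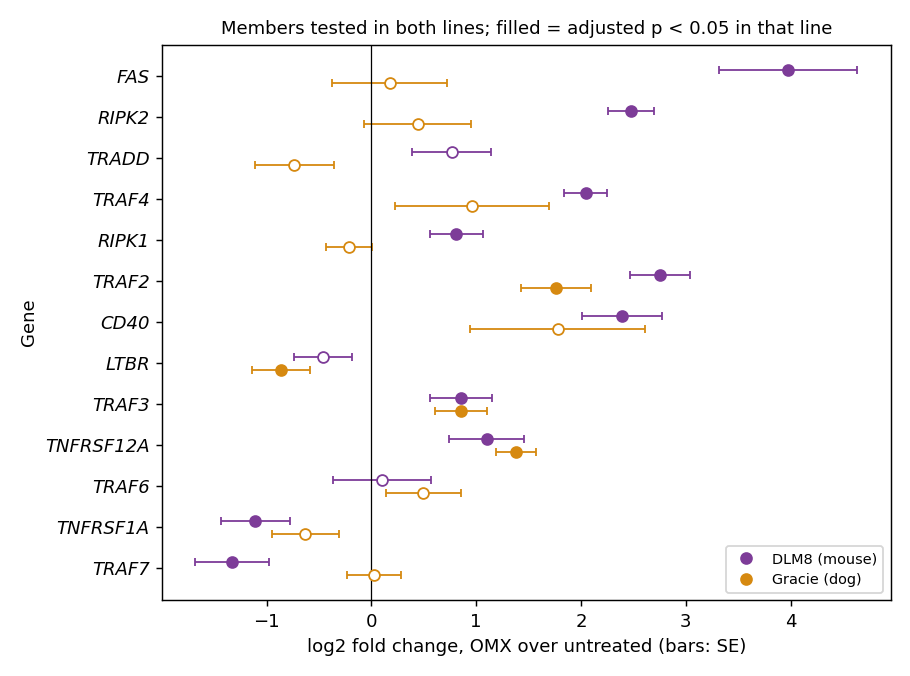
Log2 fold change, OMX over untreated, of the 13 members tested in both lines, DLM8 in purple and Gracie in orange, with bars for the SE (n = 3 libraries per group). Filled points were called in that line. FAS, RIPK2, TRADD and RIPK1 lie higher in DLM8 and TRAF7 lies lower, while TRAF3 and TNFRSF12A lie close together.

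The other 10 differences were not called, which does not show that the lines responded alike. TRAF7 (-1.35 ± 0.45, adjusted p 0.0529) and TRADD (1.5 ± 0.53, adjusted p 0.069) lay nearest to the threshold. TRAF2 differed by 0.99 ± 0.44 (adjusted p 0.159) and TRAF4 by 1.09 ± 0.59 (adjusted p 0.253). The value was -0.28 ± 0.42 for TNFRSF12A and 0.60 ± 0.85 for CD40. In the plot of both lines, CD40 and TRAF4 have a wider SE in Gracie than in DLM8.

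Genes on the other strand limit what a row can show. The strand setting of the counting is not given in the sources used here, and in the 6 DLM8 libraries mt-Nd6, which lies on the opposite strand from the other mitochondrial protein genes, had counts 49.9 to 94.1 times as high as the median of those 12 genes. A row can therefore hold reads from a gene that faces it. Which strand the DLM8 rows were counted on was not tested. A DLM8 level or fold change may thus be that of reads opposite to the named gene, also in rows that face no gene. In the mouse annotation 18 of the 50 members face a gene, 10 of them within exons, and 6 of the 14 called rows do. The 8 called rows that face none were Ripk2, Traf4, Traf1, Cd40, Fas, Ltb, Tnfrsf12a and Tnfrsf1a, 7 higher and 1 lower.

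Of the 6 called rows that face a gene, Traf5 and Ripk1 held fewer counts than the facing row. Gm26879 faces Traf5 with 27.0 times its counts and rose by 1.46 ± 0.17 (adjusted p 5.76e-05), in the same direction as Traf5. Serpinb6a faces Ripk1 with 8.13 times its counts and was not called (log2 fold change -0.12, adjusted p 0.561). Caskin1, with 0.512 times the counts of Traf7, fell by 1.48 (adjusted p 0.0101), as Traf7 did. The rows facing Traf2, Traf3 and Tnfrsf19 held 0.114, 0.118 and 0.281 times the counts of their member. Of these, 4930595D18Rik, facing Traf3, rose by 3.81 ± 0.93 (adjusted p 0.00714), from 26, 29 and 63 counts with OMX and 8, 0 and 0 without. Whether reads of one strand stood in the row of the other was not tested, and dog positions were not used here.

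**Figure D4:**
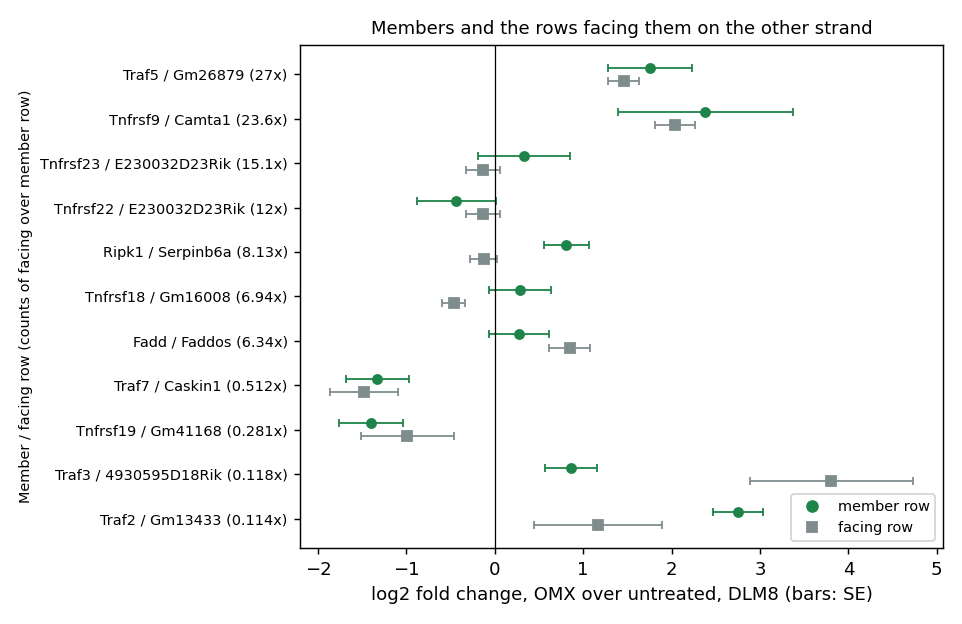
Log2 fold change, OMX over untreated, in DLM8 for tested members (green circles) and for the tested rows that face them on the other strand (grey squares), with bars for the SE. Numbers beside the names give the counts of the facing row over those of the member. The values of Ripk1, Tnfrsf18 and Tnfrsf23 have the opposite sign to their facing rows, and those of the other plotted members share the sign.

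Among uncalled members, Camta1 faces Tnfrsf9 with 23.6 times its counts and rose by 2.04 ± 0.22 (adjusted p 3.11e-05). Faddos faces Fadd with 6.34 times its counts and rose by 0.85 ± 0.23 (adjusted p 0.0134). E230032D23Rik faces Tnfrsf22 and Tnfrsf23 with 12 and 15.1 times their counts.

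The family genes outside the symbol rule went different ways. Edar, the ectodysplasin receptor, averaged 19.9 ± 4.18 CPM in OMX and 2.45 ± 1.11 CPM in untreated DLM8 libraries (SD, n = 3 each). Its log2 fold change was 3.03 ± 0.33 (adjusted p 3.11e-05). Cd27, a costimulatory receptor, was also called higher (1.84, adjusted p 0.0449), and Eda2r and Relt were not called. With 12, 43 and 19 counts in OMX and 7, 8 and 4 in untreated libraries, Cd27 passed the filter through OMX alone. The filter thus favoured a rise in this row. The cytokine TNF itself had 7, 7 and 31 counts with OMX and 79, 74 and 64 without in Gracie. It fell by 2.46 (SE 0.51, adjusted p 0.00402), with all OMX libraries below all untreated ones. Only in the untreated group did every library of this row reach the filter minimum, so the filter favoured a fall. In DLM8 Tnf had 7, 4 and 14 counts with OMX and 0 in each untreated library, too few to test. FASLG had at most 2 counts in a Gracie library. CD40LG, the ligand of CD40, had 2, 16 and 11 counts with OMX and 6, 0 and 16 without in Gracie, overlapping and below the filter, and at most 2 counts in a DLM8 library.

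Genes of the receptor complex and its ubiquitin chains were called in both lines. Of 26 tested in DLM8, 13 were called higher and 1 lower, where 19.4% of all genes were higher and 15.9% lower, with a median log2 fold change of 0.83. Among the 13, Birc2, Birc3 and Ikbke passed the filter through the OMX libraries alone, so the filter favoured a rise in them. The count and median include them. The 3 with the smallest p were Tnfaip3 (A20, which edits ubiquitin chains to end the signal; 3.14 ± 0.23, adjusted p 1.18e-06), Map3k14 (5.23 ± 0.40) and Tnip1, a partner of A20 (3.37 ± 0.26). Rbck1, a subunit of the linear ubiquitin ligase, fell by 0.76 (adjusted p 0.0273). Of 24 tested in Gracie, 7 were called higher and 1 lower, where 12.5% of all genes were higher and 8.06% lower, with a median of 0.48. Among the 7 was MAP3K14, which passed the filter through the OMX libraries alone. BIRC3, the ubiquitin ligase that TRAF2 carries, rose by 3.86 ± 0.25 (adjusted p 8.05e-07), TNFAIP3 by 4.05 ± 0.31 and TNIP1 by 1.47 ± 0.22. MADD, a death-domain protein that binds TNFRSF1A, fell by 1.64 (adjusted p 0.0236), and passed the filter through the untreated libraries alone.

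Most genes of the NF-kB arm were called higher in both lines. Of 11 tested in DLM8, 7 were called higher and 1 lower, where 19.4% of all genes were higher and 15.9% lower. The median was 2.02, led by Nfkbie (5.93 ± 0.23), Relb (3.84 ± 0.21) and Nfkb2 (2.67 ± 0.16). Ikbkg, the regulatory subunit of the IKK complex, fell by 1.41 (adjusted p 9.52e-06). Facing genes were looked up for the members alone, so Ikbkg and the other genes of these lists were not checked for them. Of 10 tested in Gracie, edgeR called 7 higher and 0 lower, where 12.5% of all genes were higher and 8.06% lower. The median was 1.54, led by RELB (3.62 ± 0.25), NFKB2 (2.17 ± 0.19) and NFKB1 (1.73 ± 0.23). None of the 10 was lower at an unadjusted p under 0.05 or by DESeq2.

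Death effectors below the receptors were called in Gracie alone. In DLM8 edgeR and DESeq2 called 0 of 11, where edgeR called 35.3% of all genes tested. The median of the 11 was -0.21, and 2 had an unadjusted p under 0.05. In Gracie 2 of 7 were called, both higher, where 12.5% of all genes were higher. CFLAR, the inhibitor of caspase-8 in the receptor complex, had 42, 75 and 89 counts with OMX and 10, 21 and 15 without and rose by 1.94 ± 0.43 (adjusted p 0.00572). DAXX, first described as a FAS-binding protein, rose by 1.09 ± 0.34 (adjusted p 0.0373). Of the proteases that shed family members from the surface, ADAM10 fell in both lines, by 1.34 (SE 0.34, adjusted p 0.00859) in DLM8 and 1.28 (SE 0.37, adjusted p 0.0255) in Gracie, and ADAM17 was not called in either.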

How the data were processed

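RNA of 12 libraries was sequenced after poly(A) selection, per the labels' protocols. The authors deposited raw counts per gene in 1 table for each species, with 1 column per library, and 0 columns were left unmapped. The tools STAR, featureCounts and Subread and the builds CanFam3.1 and GRCm39 (mm39) are named in the submitters' processing notes. Tool versions, strand setting and treatment of mates were not given in the sources used here. Of the nonzero counts, 67.7% to 73.7% were even, so counts are not independent molecules, and intervals and floors cover counting error only.

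DLM8 and Gracie had separate fits (edgeR 4.0.16 in R 4.3.3): filterByExpr (count minimum 10), TMM scaling, the quasi-likelihood F-test of OMX against untreated, and Benjamini-Hochberg adjustment over all genes tested. Rows with an adjusted p under 0.05 were called. Log2 fold changes carry an SE equal to their size divided by the square root of F. With 3 libraries against 3, an exact permutation test cannot go below a p of 0.1. The line difference was the interaction of line and treatment over shared symbols. A floor of 3 counts over the group stood for 0. No replicate pair was identical (mean chi-square per gene 5.51 to 30.4). edgeR's common biological coefficient of variation came to 0.246 (DLM8) and 0.296 (Gracie).

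Alternatives were 2 other size factor methods, library size alone, no filter, DESeq2 1.42.0, halved counts, a replicate block and leaving out each library. GENCODE M21, of another build than the counts, gave exon lengths and facing genes for the 50 mouse members by identifier. Promoter windows are from RefSeq. Calling was tested on simulated data.

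The members and gene lists were chosen with earlier results of these data known. Values in every library are given for called members, for the 14 and 10 members of smallest p in DLM8 and Gracie, and for the highest member of each role in CPM, with the other line beside them. From each list the 3 of smallest p per direction are named, and other members named were picked after their values were seen. Single values of 2 death effector genes are not reported here.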

Additional observations from a re-analysis of the deposited data

Results flagged for a closer look

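The response to OMX differed between DLM8 and Gracie for 3 of the 13 members tested in both, by edgeR's test of the interaction. RIPK2 differed by 2.04 on the log2 scale (DLM8 minus Gracie, adjusted p 0.00722), with log2 fold changes of 2.48 in DLM8 and 0.44 in Gracie. FAS differed by 3.78 (adjusted p 0.00785), with 3.98 in DLM8 and 0.18 in Gracie, and the DLM8 value rests on 0, 9 and 4 untreated counts. Fas was tested in DLM8 only because its OMX libraries passed the filter, so the filter favoured a rise there. RIPK1 differed by 1.02 (adjusted p 0.0402), with 0.81 in DLM8 and -0.21 in Gracie, and its DLM8 row faces Serpinb6a, which has 8.13 times its counts. The lines differ in species, depth and annotation, and these cannot be told apart from the line.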

How the results depend on the processing

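Of 797 values of single members under other settings, 705 kept their direction and side of the threshold, and of 173 counts, 155 stayed within 1.5 times the main count. The calls of Ripk2, Traf4, Traf2, Traf1, Cd40, Fas, Ltb and Tnfrsf19 in DLM8, of TNFRSF12A, TRAF2 and TNFRSF6B in Gracie, and of RIPK2 and FAS between lines held in every setting that tested them. Traf1, Fas and Ltb in DLM8 and TNFRSF6B in Gracie passed the filter through the OMX libraries alone. That their calls held, and that of FAS between lines, is therefore no independent check. Leaving out 1 library gave 7 to 12 members higher (7 without untreated 2) and 1 to 4 lower (1 without OMX 2) in DLM8, and 3 to 4 higher and 0 to 1 lower in Gracie (0 without untreated 2 or any 1 OMX library). It gave 2 to 4 members higher and 0 to 1 lower between lines. Over all genes it gave 2544 to 3682 higher and 1998 to 3206 lower in DLM8, 827 to 1462 higher (827 without OMX 2) and 395 to 925 lower in Gracie (395, 495 and 553 without OMX 2, untreated 2 and OMX 3), and 324 to 474 higher and 313 to 547 lower between lines.

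With library size alone, genes lower in the line difference numbered 241, against 469 with TMM. Members lower in it numbered 1 with DESeq2, with halved counts and with the replicate block, against 0, each time TRAF7 (adjusted p 0.0358, 0.0353 and 0.00407). TRADD passed with library size alone and with DESeq2 (0.0316 and 0.0457). By exon overlap 10 members faced a gene, against 18 by gene body.

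Reversed values were all of uncalled results. With upper-quartile scaling they were Tnfrsf21 (-0.020) in DLM8, and TRAF7 (-0.0020) and TNFSF9 (-0.021) in Gracie. With library size alone they were TRAF7 (-0.089) and TNFSF9 (-0.15), and between lines TNFRSF12A (0.0045) and TRAF3 (0.29). TNFSF9 was -0.011 with no filter, and TRAF3 between lines was 0.0029 with relative log expression factors and 0.011 with the replicate block. Leaving out 1 library moved uncalled DLM8 values over 0: Fadd -0.0044 to 0.51, Tnfrsf18 -0.024 to 0.55, Tnfrsf23 -0.18 to 0.84, Traf6 -0.085 to 0.45 and Tnfrsf21 -0.058 to 0.18. In Gracie the ranges were RIPK3 -1.17 to 0.34, TNFSF18 -0.20 to 0.64, FAS -0.29 to 0.57, TNFRSF17 -0.47 to 0.16, TRAF7 -0.21 to 0.22 and TNFSF9 -0.46 to 0.48. Between lines they were CD40 -0.25 to 1.31, TNFRSF12A -0.82 to 0.011 and TRAF3 -0.30 to 0.31.

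Whether replicate numbers pair the libraries was not settled. Deviations of same-numbered libraries correlated by 0.20, 0.04 and 0.11 in DLM8 and 0.13, -0.02 and 0.18 in Gracie. OMX 1 with untreated 3 and OMX 3 with untreated 1 correlated by -0.14 and -0.16 in DLM8 and by -0.17 and -0.15 in Gracie. OMX 2 correlated best with untreated 3 in DLM8 (0.06) and with untreated 1 in Gracie (0.02). With the replicate block, 11 members were higher and 3 lower in DLM8 and 4 higher and 1 lower in Gracie, as without it. The causes were not tested. In Gracie 19 member rows were below the filter, and in DLM8 15 were.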
